A study of Mus musculus with 20 samples.

Results

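Lungs of mice with and without arginase 2 were compared for how their transcripts answered a long exposure to low oxygen. The quantity described for each gene was the hypoxia effect in the knockout minus the hypoxia effect in the wild type, in log2 units. Wild type (Arg2+/+) and knockout (Arg2-/-) animals on a C57/129 background, males and females aged 8 to 10 weeks, breathed either room air (21% oxygen) or air with 10% oxygen (hypoxia) for 28 days. All 20 deposited libraries entered the contrast, and pairs of libraries that share a number and carry the letter A or B were summed, which gave 16 samples, 4 in each of the 4 groups. The labels give whole snap-frozen lungs rinsed in buffer. The sources used here do not give the position of the Arg2 deletion or say whether wild type and knockout animals were littermates.

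The product of Arg2, arginase 2, sits in mitochondria and turns arginine to ornithine and urea, so it shares its substrate with the nitric oxide synthases. Chronic hypoxia constricts and remodels the pulmonary arteries. It acts on transcripts through the hypoxia-inducible factors, which bind a short core sequence in their target genes. Cells whose endoplasmic reticulum fills with unfolded protein answer through the sensors Ire1, Perk and Atf6. Ire1 splices the Xbp1 transcript, Perk raises the factor Chop (gene Ddit3), and the cleaved form of Atf6 binds, with the factor NF-Y, the endoplasmic reticulum stress response element of chaperone genes.

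Samples are named by group and number throughout. The depth in genes was lowest in wild type room air 3 (9531270 reads) and highest in knockout room air 3 (63331530 reads). The share of reads that fell in genes was under 40% in 3 samples: wild type room air 3 (25.3%), wild type hypoxia 1 (35.3%) and knockout hypoxia 3 (37.4%). It was 46.9% to 63.6% in the other 13. Wild type room air 3 lay with the knockout room air samples on the first principal component. The lung markers Sftpc (surfactant protein C), Ager (alveolar type I cells) and Scgb1a1 (club cells) were high in every sample, at 8229 to 12649, 1851 to 2345 and 11779 to 21775 CPM. CPM are counts scaled to the reads in genes of a library, after TMM. Genes of other organs stood out most in 4 samples: the muscle gene Pvalb at 72.4 CPM in wild type room air 1, the atrial gene Nppa at 187 CPM in knockout room air 3, the thymocyte gene Dntt at 12.7 and 11.6 CPM in knockout room air 3 and 4, and the pancreatic gene Ctrl at 79.7 CPM in knockout hypoxia 1. Summed pancreas markers also reached 203 CPM in knockout hypoxia 2 and 29.3 in knockout hypoxia 3, against 3.13 to 16.1 in the other groups. Both samples were kept wherever the 4 samples with genes of other organs were left out. Arg2 (chr12:79130777-79156301) was measured at 8.47, 9.14, 11.8 and 7.3 CPM in the room air and 6.33, 11.7, 10 and 9.13 in the hypoxia samples of the wild type. In the knockout it was at 4.58, 5.26, 4.88 and 7.78 CPM in room air and 4.57, 3.22, 5.37 and 3.97 in hypoxia. Every knockout sample except knockout room air 4 lay below all 8 wild type samples. Its hypoxia effects did not differ detectably between the genotypes (-0.43 ± 0.30 (SE), edgeR adjusted p = 0.563). The sources used here do not say whether the counted exons lie in the deleted stretch, so these values check the labels only in part.

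Of 15761 genes tested, 79 (0.501%) had hypoxia effects that differed between the genotypes at an adjusted p under 0.05 (edgeR's quasi-likelihood test, two-sided, Benjamini-Hochberg adjustment), and a gene that passed this test is said to be called. The effect was higher in the knockout for 44 genes (0.279%) and lower for 35 (0.222%). Under upper quartile scaling the count was also 79, of which 35 were higher and 44 lower, so that the share of higher genes was 44.3% in place of 55.7%. Over all genes tested the median difference was 0.00, and 2225 genes had an unadjusted p under 0.05, 1044 of them higher (6.62%) and 1181 lower (7.49%). Unadjusted counts in the lists are to be read against these shares. Among the called genes the size of the difference ranged from 0.44 to 3.99 on the log2 scale with a median of 0.85, and 28 differed by at least 2-fold. When each sample was left out in turn, the count ran from 26 without knockout room air 1 to 125 without wild type room air 1, and it was under 53 also without wild type room air 4 (40), wild type hypoxia 1 (37), knockout hypoxia 1 (48), knockout hypoxia 3 (38) or knockout hypoxia 4 (43). Of the 79 genes, 8 stayed called under all 30 alternatives tried (among them Creld2, Gprasp1, 6430548M08Rik, Tiam1, Ccr3, Elf5 and Manf), and none reversed its sign in those that gave it a value (Tomm20l had none by DESeq2). Without the 3 samples with under 40% of reads in genes, a choice made after seeing the data, 9 of the 79 stayed called and all 79 kept their sign. These 9 were those 8 and Fbln2. Without the 4 samples that held genes of other organs, 48 genes were called, and only 27 of the 79 stayed called.

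Most of the called genes passed the test for hypoxia in the knockout alone. Hypoxia changed 53 of the 79 in the knockout and not detectably in the wild type, and 10 in the wild type and not detectably in the knockout. It changed 11 in the same direction in both genotypes and 5 in opposite directions (Ciart, Gprasp1, Hey1, Ndnf and Tuba1a). These classes rest on the same samples as the contrast and are given as a description. Over all genes tested, hypoxia changed 785 (4.98%) in the wild type and 2685 (17.0%) in the knockout. The genotypes differed in 12 genes (0.0761%) in room air and in 3632 (23.0%) in hypoxia. None of the 79 called genes differed between the genotypes in room air by edgeR, and all 79 did in hypoxia. In room air the 4 wild type and 4 knockout samples of 5 called genes did not overlap (10.4% of all genes tested), while in hypoxia they did not overlap for any of the 79 (25.4% of all genes tested). In 61 of the 79 the knockout hypoxia samples lay apart from the other 12 samples (8.97% of all genes tested). The contrast itself makes such separation likely, so these shares describe the called genes and support nothing further.

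**Figure D1:**
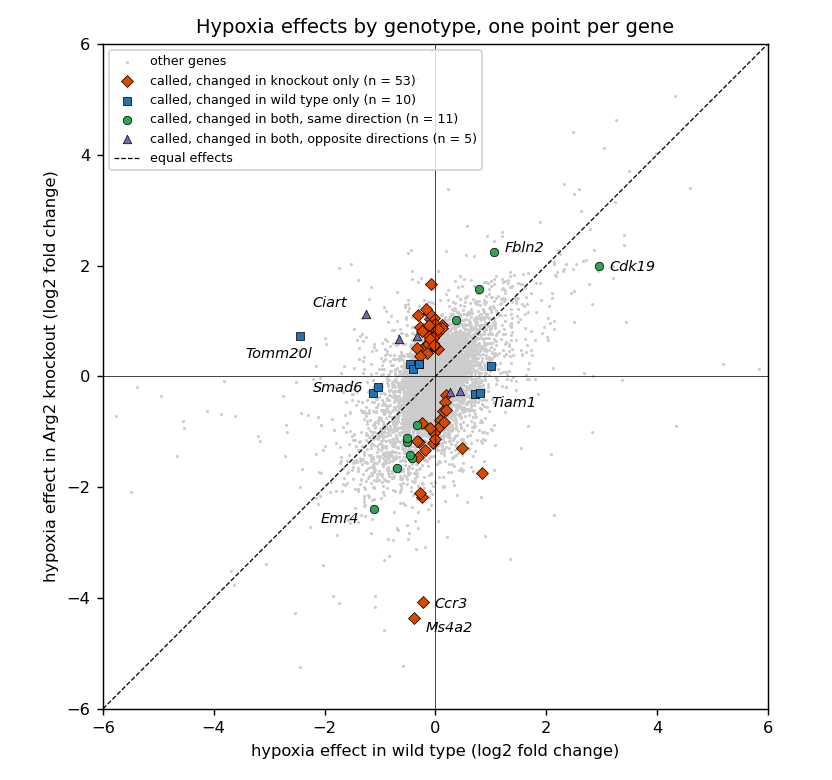
Hypoxia effect in the wild type (horizontal axis, log2 fold change) against the hypoxia effect in the Arg2 knockout (vertical axis, log2 fold change), with 1 point per gene tested and 6 genes beyond the axes. Coloured symbols are the 79 called genes by response class. Most lie close to 0 on the horizontal axis and away from 0 on the vertical axis.

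Chaperones and folding enzymes of the endoplasmic reticulum gave 5 calls among the 28 genes of their list, all with a higher hypoxia effect in the knockout (17.9%, against 0.279% of all genes tested): Hspa5, Creld2, Manf, Xbp1 and Ero1lb. The list's median difference was 0.44 against 0.00 over all genes tested, and 27 of its 28 members lay above 0. The median hypoxia effect of the list was 0.00 in the wild type and 0.48 in the knockout. In the knockout 19 members rose and 0 fell with hypoxia, and in the wild type 0 rose and 1 fell.

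The promoters of several of these genes carry the same stress element, and their sequences are shown because it recurs among the members. The element was searched as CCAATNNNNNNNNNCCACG on both strands of the window from 250 bases before to 50 bases after the start of each gene, in RefSeq's promoter table for GRCm38.p6. It was found in 9 of the 23 members of the list with an entry (39.1%). Among called genes with an entry it was found in 2 of 33 called higher (Hspa5 and Creld2, 6.06%) and in 0 of 26 called lower. The share was 0.166% of the 12079 genes tested that have an entry. Over all 32851 promoters of that length the share was 0.119%. The 250 bases before the start of both called genes are printed with the element in capitals, 5′ to 3′ on the gene's strand.
Hspa5, chr2:34771840-34772089, plus strand: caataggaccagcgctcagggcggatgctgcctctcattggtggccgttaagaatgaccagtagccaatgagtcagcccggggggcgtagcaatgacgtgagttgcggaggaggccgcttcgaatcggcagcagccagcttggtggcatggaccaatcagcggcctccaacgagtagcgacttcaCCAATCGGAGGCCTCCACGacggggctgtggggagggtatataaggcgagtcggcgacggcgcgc
Creld2, chr15:88819396-88819645, plus strand: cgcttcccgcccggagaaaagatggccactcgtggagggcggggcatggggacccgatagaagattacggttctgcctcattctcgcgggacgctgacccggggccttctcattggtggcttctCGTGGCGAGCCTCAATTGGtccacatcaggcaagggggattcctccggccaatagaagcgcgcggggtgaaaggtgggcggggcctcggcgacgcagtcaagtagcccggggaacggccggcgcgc
In Hspa5 the element began 65 bases before the start, and in Creld2 it lay on the opposite strand, 126 bases before the start. These starts are those of the promoter table. For Hspa5 that start and the element lie inside the GENCODE span of the gene given below. Read on their own strand, the elements of the list are given with the fixed letters in capitals and the free letters in lower case. Hsp90b1 held the element at 2 places.
Hspa5, chr2:34772025-34772043, plus strand: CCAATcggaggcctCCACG
Creld2, chr15:88819520-88819538, minus strand: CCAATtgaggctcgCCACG
Hsp90b1, chr10:86705638-86705656, minus strand: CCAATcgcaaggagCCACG
Hsp90b1, chr10:86705533-86705551, plus strand: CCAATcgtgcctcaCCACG
Calr, chr8:84847075-84847093, plus strand: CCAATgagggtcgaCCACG
Canx, chr11:50325800-50325818, minus strand: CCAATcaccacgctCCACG
Pdia6, chr12:17266491-17266509, plus strand: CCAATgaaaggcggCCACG
Dnajc3, chr14:118937827-118937845, plus strand: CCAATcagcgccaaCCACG
Syvn1, chr19:6046532-6046550, plus strand: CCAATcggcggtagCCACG
Derl3, chr10:75893242-75893260, minus strand: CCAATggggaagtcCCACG
The 9 members with the element had a median difference of 0.47 (0.18 to 2.32), and the 14 members with an entry and without it a median of 0.38 (-0.11 to 1.09). These ranges overlap, and no test was made of the presence of the element. A match describes letters in a window and not the binding of a factor. Derl3 (derlin 3, which helps to draw misfolded proteins out of the endoplasmic reticulum) had the largest difference of the list, 2.32, at an adjusted p of 0.0544.

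Hspa5 encodes BiP, the main chaperone of the endoplasmic reticulum and the inhibitor that holds its stress sensors inactive (chr2:34771970-34777547). It was measured at 544, 521, 784 and 555 CPM in wild type room air samples 1 to 4 and at 575, 603, 646 and 545 in wild type hypoxia. The knockout samples were at 735, 893, 819 and 682 CPM in room air and 1602, 1374, 1643 and 1894 in hypoxia. The 4 knockout hypoxia samples lay above the other 12, and wild type room air 3, with the lowest share of reads in genes, was the highest of its group. Its hypoxia effect was -0.02 ± 0.13 (SE) in the wild type and 1.06 ± 0.13 in the knockout (adjusted p = 1.32e-05), a difference of 1.08 ± 0.18 (adjusted p = 0.00872). Creld2, a disulphide isomerase-like protein of the endoplasmic reticulum (chr15:88819646-88826683), was at 26.1, 27.6, 36.8 and 27.6 CPM in wild type room air and 25.9, 28.9, 27.6 and 27.5 in wild type hypoxia. Its knockout samples stood at 35.6, 41.8, 40.2 and 39 CPM in room air and 82, 72.8, 81.1 and 85.5 in hypoxia. It rose in the knockout, by 1.04 ± 0.10 against -0.09 ± 0.10 in the wild type, and its difference of 1.13 ± 0.14 had the smallest p of all genes (adjusted p = 0.00148). Manf, a secreted factor that binds BiP (chr9:106838312-106891979), had means of 59.5 ± 13.7 CPM (SD, n = 4) in room air and 54.9 ± 6.6 in hypoxia in the wild type, and of 72.4 ± 9.71 and 159 ± 21.4 in the knockout. Its difference was 1.24 ± 0.20 (adjusted p = 0.00813), with knockout hypoxia samples at 160, 138, 150 and 188 CPM against a highest value of 84 in the other 12. The model of Manf overlaps Rbm15b and Vprbp, so reads of these genes may be mixed.

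Xbp1 and Ero1lb differed by less. Xbp1, the transcription factor spliced by Ire1 (chr11:5520659-5525893), was at 196, 189, 252 and 198 CPM in the room air and 205, 201, 212 and 198 in the hypoxia samples of the wild type. Knockout samples were at 220, 227, 241 and 221 CPM in room air and 320, 323, 324 and 375 in hypoxia. The knockout hypoxia samples lay above all others, and the difference was 0.59 ± 0.12 (adjusted p = 0.0356). Counts per gene do not separate its spliced and unspliced forms. Ero1lb, an oxidase that supplies disulphide bonds (chr13:12565874-12611396), differed in another way. It fell in the wild type, from 19.9 ± 1.57 to 14.5 ± 0.651 CPM (-0.45 ± 0.09, adjusted p = 0.00461), and stood at 20.9 ± 1.86 and 24.5 ± 1.15 CPM in the knockout (0.23 ± 0.09, adjusted p = 0.0802). Among members that were not called, Sdf2l1 (a partner of BiP) differed by 1.00 ± 0.23 (adjusted p = 0.0528), the isomerase Pdia4 by 0.48 ± 0.12 (adjusted p = 0.0698) and the chaperone Hsp90b1 by 0.42 ± 0.14 (adjusted p = 0.17). Creld2, Manf and Hspa5 stayed called when any 1 sample was left out, with adjusted p up to 0.00646, 0.0284 and 0.0284, while Hspa5 reached 0.0603 without the 3 samples with few reads in genes and 0.0623 without the 4 with genes of other organs. Ero1lb lost its call without knockout room air 1 (adjusted p = 0.0515). Xbp1 lost it when any 1 sample was left out other than the wild type samples room air 1, 2 and 3 and the knockout samples room air 3, hypoxia 2 (adjusted p 0.0528 to 0.0903).

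**Figure D2:**
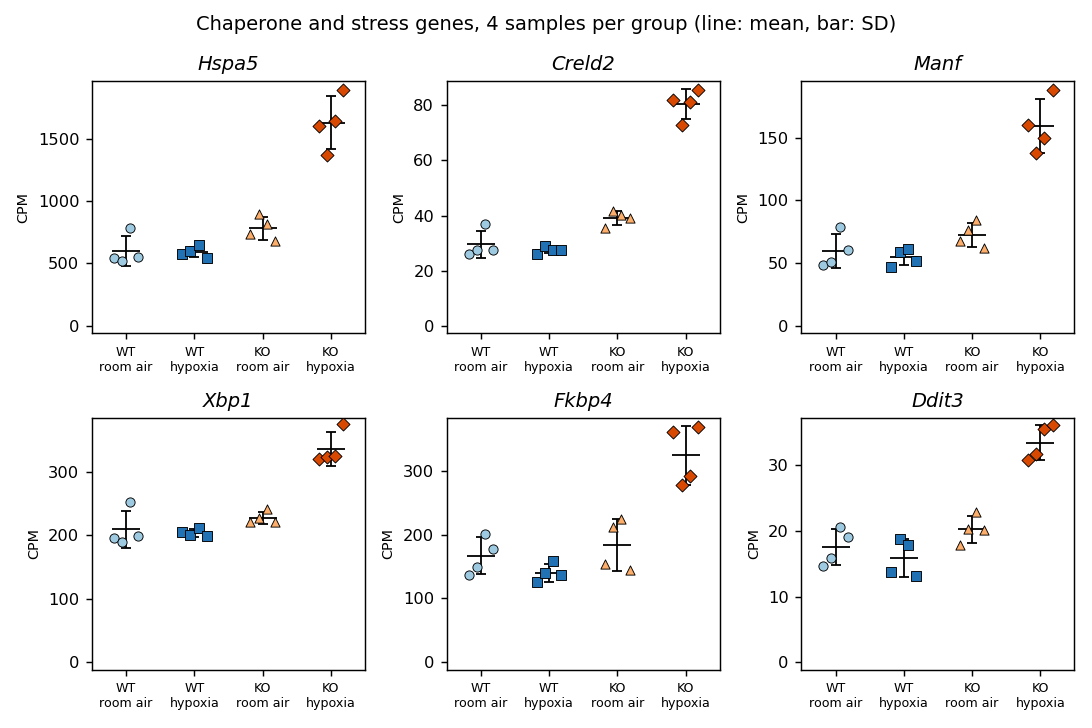
Expression in CPM (vertical axis, from 0) of 6 chaperone and stress genes in the 4 groups, with 1 point per sample, a line at the group mean and a bar of 1 SD over 4 samples. In each panel the 4 knockout hypoxia samples lie above the samples of the other groups, as for Hspa5 at 1374 to 1894 CPM.

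Chaperones of the cytosol and the mitochondria gave 2 calls, also higher in the knockout. These proteins are raised by the heat shock factors and fold newly made and damaged proteins. The called genes of the 26 measured (7.69%, against 0.279% of all genes tested) were Fkbp4 and Ahsa1, which are co-chaperones of Hsp90. The list's median difference was 1.06, 25 of 26 members lay above 0, and 16 were higher at an unadjusted p under 0.05 (6.62% of all genes tested). The median hypoxia effect was -0.22 in the wild type and 0.80 in the knockout, where 11 members rose. Fkbp4 (chr6:128429735-128438677) was at 137, 150, 201 and 178 CPM in the room air and 125, 140, 159 and 136 in the hypoxia samples of the wild type. In the knockout it was at 154, 212, 225 and 144 CPM in room air and 360, 278, 291 and 368 in hypoxia. The knockout hypoxia samples again lay above the rest, with a difference of 1.07 ± 0.21 (adjusted p = 0.0274). Ahsa1 (chr12:87266479-87273998) had group means of 81.2 ± 14.3, 67.3 ± 12.7, 92.4 ± 22.4 and 171 ± 24.4 CPM in the same order, a difference of 1.16 ± 0.24 (adjusted p = 0.0398). Cct7, a subunit of the cytosolic chaperonin that folds actin and tubulin, was called outside the list (0.66 ± 0.14, adjusted p = 0.0455). It lost its call when any 1 sample was left out other than the wild type samples room air 1 and 2 and the knockout samples room air 2, hypoxia 2 (adjusted p 0.0518 to 0.112).

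Inducible members of this list varied widely within groups. Hspa1b, the inducible Hsp70, was at 6.18, 14.7, 100 and 66 CPM in the room air and 3.95, 7.44, 46.8 and 10.7 in the hypoxia samples of the wild type. The knockout samples were at 40.9, 108, 179 and 19.3 CPM in room air and 411, 146, 135 and 472 in hypoxia. Within every group its samples differed by more than 3-fold, and its difference was 3.14 ± 1.41 (adjusted p = 0.343). Hspa1a and Hspa1b are near-identical copies whose reads can be split between them. Hspa8, the constitutive Hsc70, was at 115, 192, 225 and 203 CPM in the room air and 66, 141, 176 and 122 in the hypoxia samples of the wild type. Its knockout samples stood at 186, 251, 296 and 140 CPM in room air and 510, 490, 485 and 627 in hypoxia. Its knockout hypoxia samples lay above the other 12, but the difference of 1.81 ± 0.41 was not called (adjusted p = 0.0675). The heat shock element was searched on both strands of the same window as GAA, TTC and GAA, or TTC, GAA and TTC, with NN between neighbours. It was found in 4 of 19 members with an entry (21.1%) and in 0 of the 59 called genes with an entry. Among all genes tested with an entry the share was 0.58%. Fkbp4 lost its call when any 1 of the wild type samples room air 4, hypoxia 1 and 4 and the knockout samples room air 1, hypoxia 1 and 4 was left out (adjusted p 0.054 to 0.0774). Ahsa1 lost it when any 1 sample was left out other than the wild type samples room air 1, hypoxia 3 and the knockout samples room air 2 and 3, hypoxia 2 (adjusted p 0.0523 to 0.0951).

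The integrated stress response, the branch that slows translation and raises Atf4, gave 1 call among 18 genes, Ddit3, which encodes Chop. It was called higher (5.56% of the list, against 0.279% of all genes tested). Ddit3 was at 14.6, 15.8, 20.5 and 19 CPM in the room air and 13.8, 18.8, 17.9 and 13.2 in the hypoxia samples of the wild type. Knockout samples were at 17.8, 20.2, 22.9 and 20.1 CPM in room air and 30.7, 31.7, 35.4 and 36 in hypoxia. The knockout hypoxia samples lay above all others (difference 0.84 ± 0.19, adjusted p = 0.0455). Atf4 itself differed by -0.14 ± 0.14 (adjusted p = 0.716), and the list's median difference was 0.03, or -0.01 under upper quartile scaling. The call of Ddit3 was lost when any 1 sample was left out other than the wild type samples room air 1 and 2, hypoxia 2 and knockout room air 3 (adjusted p 0.0564 to 0.114), and under upper quartile scaling (0.0545), limma voom (0.0545), edgeR without its robust option (0.0516) or library A alone of each lettered pair (0.0537). Without the 4 samples with genes of other organs Ddit3 was not called either.

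Targets of the hypoxia-inducible factors gave 3 calls of 33 measured, all higher (9.09%, against 0.279% of all genes tested): Hmox1, Ndrg1 and P4ha2. DESeq2 called 4 higher and 2 lower. The list's median difference was 0.04, or -0.01 under upper quartile scaling. Ndrg1, a stress gene induced by low oxygen (chr15:66929318-66969640), rose in both genotypes, from 37, 33.3, 33.1 and 43.8 to 67.9, 71.5, 59.2 and 57.8 CPM in the wild type and from 35.3, 39.4, 37.8 and 49.7 to 128, 107, 121 and 126 in the knockout. The rise was 0.79 ± 0.11 in the wild type and 1.58 ± 0.11 in the knockout, a difference of 0.78 ± 0.16 (adjusted p = 0.0317). Hmox1, the haem oxygenase that makes carbon monoxide and biliverdin (chr8:75093621-75100589), rose in the knockout alone. It was at 35.2, 33.4, 38.2 and 37.5 CPM in the room air and 35.9, 38.8, 37.4 and 33.5 in the hypoxia samples of the wild type. In the knockout it was at 29.4, 33.7, 32.6 and 36.9 CPM in room air and 58.1, 48.7, 57.3 and 60.2 in hypoxia, a difference of 0.74 ± 0.12 (adjusted p = 0.0098). P4ha2, a subunit of the enzyme that hydroxylates proline in collagen (chr11:54100095-54131665), likewise rose in the knockout (0.88 ± 0.11, adjusted p = 2.42e-05) and differed by 0.76 ± 0.16 (adjusted p = 0.0356). Vegfa differed by 0.10 ± 0.10 (adjusted p = 0.712), and 7 members were lower at an unadjusted p under 0.05 against 4 that were higher. The core ACGTG was searched on both strands in genes with an entry in the promoter table. It was in the window of 13 of 33 genes called higher (39.4%) and 3 of 26 called lower (11.5%). Of all genes tested with an entry 27.7% held it. Among the 3 called targets of this list a match was found for P4ha2 alone. Binding was not measured. Hmox1 stayed called when any 1 sample was left out (adjusted p up to 0.0307), and reached 0.0821 without the 3 samples with few reads in genes. Ndrg1 lost its call when any 1 sample was left out other than the wild type samples room air 1, 2 and 3, hypoxia 2 and the knockout samples room air 4, hypoxia 2 (adjusted p 0.0521 to 0.0862). P4ha2 lost it when any 1 sample was left out other than the wild type samples room air 1 and 2, hypoxia 4 and the knockout samples room air 2 and 3, hypoxia 2 (adjusted p 0.0505 to 0.0876).

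Receptors of eosinophils, basophils and mast cells had the most negative differences among the called genes, Ms4a2 and Ccr3. In bulk lung, fewer cells of a type and less RNA per cell cannot be told apart. Of 15 measured markers of these cells 2 were called, both lower (13.3%, against 0.222% of all genes tested). Ccr3, the eotaxin receptor (chr9:124021972-124031689), was at 4.33, 5.52, 6.45 and 1.61 CPM in the room air and 3.03, 3.46, 2.41 and 5.94 in the hypoxia samples of the wild type. The knockout samples were at 7.6, 5.89, 8.17 and 6.72 CPM in room air and 0.559, 0.376, 0.169 and 0.473 in hypoxia. The knockout hypoxia samples lay below all others, and the knockout room air samples overlapped the wild type samples. Ccr3 fell by 4.08 ± 0.41 on the log2 scale with hypoxia in the knockout (adjusted p = 2.63e-06), while its effect in the wild type was -0.22 ± 0.34, a difference of -3.87 ± 0.53 (adjusted p = 0.00243). It stayed called when any 1 sample was left out, with adjusted p up to 0.0102. Ms4a2, the beta chain of the high-affinity IgE receptor (chr19:11615523-11623719), was low throughout, at 0.794, 0.806, 1.4 and 1.1 CPM in the room air and 0.487, 0.561, 0.54 and 1.37 in the hypoxia samples of the wild type and 1.92, 0.743, 2.26 and 1.53 in knockout room air. In knockout hypoxia it was at 0, 0.0835, 0.0565 and 0.142 CPM, or 9 reads in all. Its fitted difference was -3.99 ± 0.74 (adjusted p = 0.0168), and its call was lost without knockout room air 1 (adjusted p = 0.0507).

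The other 13 markers were not called, and they lay on both sides of 0. Alox15, the lipoxygenase of eosinophils, was at 1.15, 0.292, 0.113 and 1.09 CPM in knockout hypoxia against 2.6 to 8 in the other 12 samples (difference -2.26 ± 0.59, adjusted p = 0.0888), Il5ra, a chain of the interleukin 5 receptor, differed by -1.25 ± 0.55 (adjusted p = 0.315), and Cpa3, a mast cell protease, by -1.91 ± 0.73 (adjusted p = 0.235). Above 0 lay Prg2 (0.60 ± 1.18) and Ear1 (0.36 ± 0.22), granule proteins of eosinophils, Mcpt4 (0.82 ± 0.94), a mast cell protease, Gata1 (0.48 ± 0.57), a factor of their lineage, and Kit (0.16 ± 0.14), with adjusted p of 0.5 to 0.879. Over the list 10 of 15 members lay below 0, with a median of -1.03. DESeq2 and limma voom called 3 members each, all lower. The summed level of the 18 markers in the files lay between 381 and 429 CPM in room air and between 295 and 325 in hypoxia in the wild type. In the knockout the sums lay between 369 and 445 CPM and between 282 and 323, so that the hypoxia groups overlapped. Most of the sum came from Kit, with group means of 180 to 268 CPM, and Hdc, with 80.7 to 114, which other lung cells also express. The eosinophil gene Epx was at 0 in wild type room air.

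Further called genes that leukocytes express were matched to none of the lists, and all but Fam65b and Emr4 were picked after their values were seen. Emr4 is an older symbol of Adgre4, which the list of monocytes and interstitial macrophages names. The deposited counts hold it as Emr4, so it was not counted with that list. Ptprc, the leukocyte common antigen CD45 (chr1:138062861-138175708), was at 295, 291, 319 and 282 CPM in the room air and 239, 243, 225 and 234 in the hypoxia samples of the wild type. Knockout samples were at 315, 316, 303 and 367 CPM in room air and 166, 172, 184 and 185 in hypoxia. It fell in both genotypes, by 0.33 ± 0.07 in the wild type and 0.88 ± 0.07 in the knockout on the log2 scale, a difference of -0.55 ± 0.10 (adjusted p = 0.0206). The signalling genes Fam65b (-1.06 ± 0.17, adjusted p = 0.00759), Fyb (-0.67 ± 0.12, 0.0168), Prkcb (-0.96 ± 0.19, 0.0243), the integrin Itga4 (-0.59 ± 0.13, 0.0473) and the adhesion receptor Emr4 of myeloid cells (-1.29 ± 0.25, 0.0206) followed the same pattern of a fall in both genotypes that was larger in the knockout. Fyb is an adapter of T cell signalling and Prkcb a protein kinase C. Emr4 was at 9.36, 9.16, 5.81 and 9.77 CPM in wild type hypoxia and 4.05, 3.38, 2.37 and 2.98 in knockout hypoxia, with no overlap. Rac2, the GTPase of blood cells, fell in the knockout (-1.17 ± 0.13, adjusted p = 6.18e-06) and differed by -0.83 ± 0.18 (adjusted p = 0.0467). Cd84, a receptor of the SLAM family, also fell in the knockout alone, with a difference of -0.53 ± 0.12 (adjusted p = 0.0455).

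Of 9 thymocyte genes 1 was called lower (11.1%, against 0.222% of all genes tested), Themis. Its product tunes T cell receptor signals in the thymus, and it was at 4.27, 4.62, 10 and 9.2 CPM in knockout room air, 2.15 to 5.12 in the wild type samples and 1.78, 1.42, 1.53 and 1.8 in knockout hypoxia (difference -1.83 ± 0.39, adjusted p = 0.0392). Its high samples, knockout room air 3 and 4, are those in which the thymocyte gene Dntt was also high. Without the 4 samples with genes of other organs its adjusted p was 0.188, with limma voom 0.13, and its call was lost when any 1 sample was left out other than the wild type samples room air 1, 3 and 4, hypoxia 2 and the knockout samples room air 1 and 2 (adjusted p 0.0537 to 0.0865). Ptprc lost its call when any 1 of the wild type samples room air 4, hypoxia 1 and the knockout samples room air 1, hypoxia 1 was left out (adjusted p 0.0507 to 0.0595), and after a correction for GC content (0.07). Fyb lost its call without knockout room air 1 (adjusted p = 0.051). Emr4 lost it when any 1 of wild type hypoxia 1 and the knockout samples room air 1, hypoxia 3 and 4 was left out (adjusted p 0.0538 to 0.0656). Prkcb lost it when any 1 of the wild type samples room air 4, hypoxia 1 and the knockout samples room air 1 and 4, hypoxia 3 and 4 was left out (adjusted p 0.0511 to 0.0716). Rac2 lost its call when any 1 sample was left out other than the wild type samples room air 2, hypoxia 3 and knockout room air 3 (adjusted p 0.0546 to 0.113). Itga4 lost it when any 1 sample was left out other than the wild type samples room air 2, hypoxia 2 and knockout room air 3 (adjusted p 0.0543 to 0.114). Cd84 lost it when any 1 sample was left out other than the wild type samples room air 3, hypoxia 4 and knockout room air 3 (adjusted p 0.0526 to 0.0996).

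The lists of lymphocyte and neutrophil markers held no called gene, although most members leaned lower. Of 28 T and natural killer cell markers edgeR called 0, limma voom 0 and DESeq2 6, all lower, and 12 were lower at an unadjusted p under 0.05 (7.49% of all genes tested). Their median difference was -0.71 and 25 lay below 0. In these markers 10 fell with hypoxia in the wild type and 25 in the knockout. Their summed level was 254 to 370 CPM in room air and 180 to 202 in hypoxia in the wild type, and 247 to 340 and 102 to 160 in the knockout, and the hypoxia groups did not overlap. Gzmb, the granzyme of cytotoxic cells and the member with the smallest p, differed by -1.28 ± 0.37 (adjusted p = 0.113). Of 18 B cell markers edgeR, limma voom and DESeq2 called 0 each, 4 were lower at an unadjusted p under 0.05, and the median was -0.71, or -0.39 without the 3 samples with few reads in genes. Their sum was 155 to 239 CPM in wild type hypoxia and 76.7 to 118 in knockout hypoxia. In room air it was 207 to 450 CPM in the wild type and 189 to 282 in the knockout, with medians of 372 and 248. The B cell adapter Bank1 differed by -1.04 ± 0.40 (adjusted p = 0.253). Of 15 neutrophil markers edgeR and limma voom called 0 and DESeq2 1, which was lower, while 9 were lower at an unadjusted p under 0.05 and the median was -1.32, or -0.83 without the 4 samples with genes of other organs. Their sum was 706 to 1613 CPM in wild type hypoxia and 531 to 621 in knockout hypoxia, and in room air 445 to 838 and 540 to 1540. The highest sums were those of wild type hypoxia 2 and knockout room air 4. S100a8, a calcium-binding protein of neutrophils, was at 127, 316, 148 and 111 CPM in wild type hypoxia and 103, 88.1, 103 and 117 in knockout hypoxia (difference -1.89 ± 0.70, adjusted p = 0.249). The part of cell numbers in the calls of leukocyte genes was not tested.

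**Figure D3:**
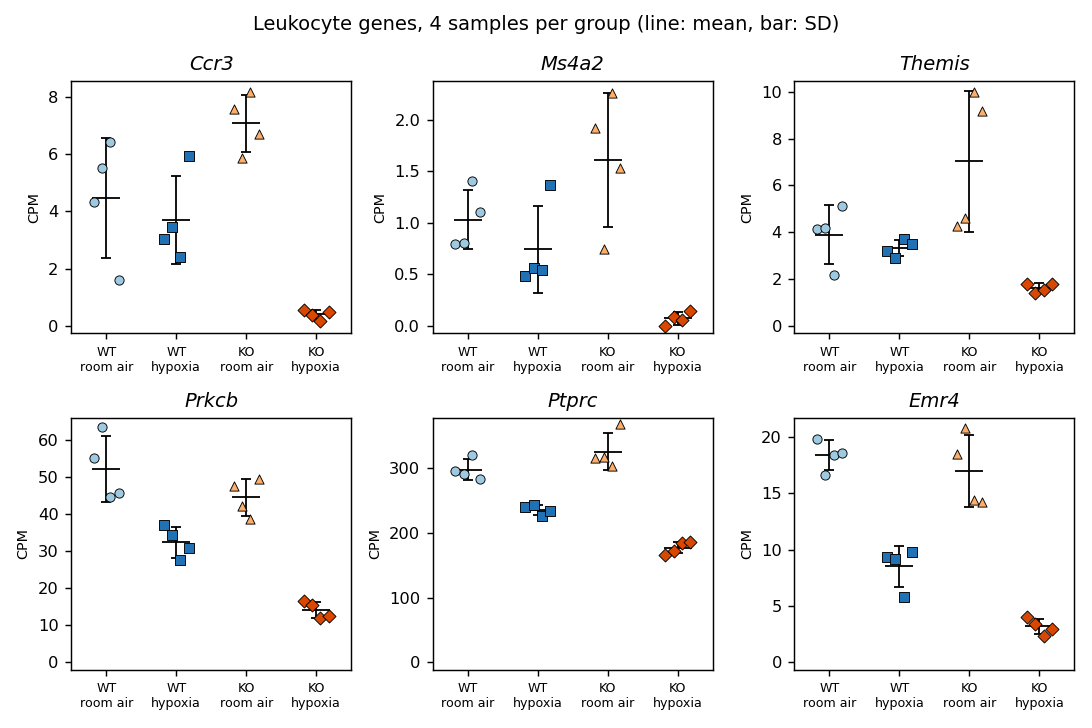
Expression in CPM (vertical axis, from 0) of 6 leukocyte genes in the 4 groups, with 1 point per sample, a line at the group mean and a bar of 1 SD over 4 samples. The knockout hypoxia samples lie below the samples of the other groups in each panel, as for Ccr3 at 0.169 to 0.559 CPM.

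BMP signals restrain growth in the vessel wall. Of 19 genes of BMP signalling Smad6 and Id1 were called, both higher in the knockout (10.5%, against 0.279% of all genes tested). At an unadjusted p under 0.05, 3 members were higher and 3 lower, and DESeq2 called 3 higher and 2 lower. The lower members with the smallest p were Bmper (-0.51 ± 0.14, adjusted p = 0.103), an extracellular regulator of BMPs, and Id4 (-0.94 ± 0.28, adjusted p = 0.119). The list's median difference was 0.01, or -0.04 under upper quartile scaling. Smad6, an inhibitor of BMP signals that BMP itself induces (chr9:63953076-64022059), was at 125, 123, 121 and 116 CPM in the room air and 53.1, 51.8, 51.6 and 81.2 in the hypoxia samples of the wild type. In the knockout it was at 110, 137, 141 and 130 CPM in room air and 122, 113, 119 and 101 in hypoxia. It fell in the wild type (-1.03 ± 0.12, adjusted p = 3.47e-05) and did not change detectably in the knockout (-0.19 ± 0.12, adjusted p = 0.327), a difference of 0.83 ± 0.17 (adjusted p = 0.0362). All 4 wild type hypoxia samples lay below the other 12. Id1, a target of BMP signals (chr2:152736251-152737410), was at 60.2, 69.3, 71.7 and 55.9 CPM in wild type hypoxia and 151, 134, 121 and 146 in knockout hypoxia (difference 0.86 ± 0.17, adjusted p = 0.0292). Its relative Id3 differed by 0.62 ± 0.18 without a call (adjusted p = 0.117), and the receptor Bmpr2 by -0.18 ± 0.23 (adjusted p = 0.799). Outside the list Hey1 was called, a repressor induced by Notch and BMP (chr3:8663359-8667256). It was at 56.9, 61.8, 98.5 and 63.8 CPM in the room air and 33.8, 42.4, 54.1 and 47.7 in the hypoxia samples of the wild type. The knockout samples were at 71.9, 71, 79.1 and 49.3 CPM in room air and 101, 118, 104 and 108 in hypoxia. It fell in the wild type (-0.65 ± 0.17, adjusted p = 0.0368) and rose in the knockout (0.67 ± 0.17, adjusted p = 0.0112), a difference of 1.31 ± 0.24 (adjusted p = 0.0201). Hey1 lost its call without knockout room air 1 (adjusted p = 0.0507). Id1 lost it when any 1 of the wild type samples room air 4, hypoxia 1 and 4 and the knockout samples room air 1 and 4, hypoxia 1 and 4 was left out (adjusted p 0.0552 to 0.0797). Smad6 lost it when any 1 sample was left out other than the wild type samples room air 1 and 3, hypoxia 4 and the knockout samples room air 3, hypoxia 4 (adjusted p 0.0528 to 0.0886). Without the 4 samples with genes of other organs neither Smad6 nor Id1 was called.

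Itga6, Mcf2l, Sema3g, Fbln2 and Plod1 were called higher in the knockout and are on none of the lists. Itga6, the integrin chain that binds laminin (chr2:71745616-71858416), was at 244 to 328 CPM in the other 12 samples and at 528, 526, 597 and 545 in knockout hypoxia (difference 0.80 ± 0.12, adjusted p = 0.00555). Mcf2l, a guanine nucleotide exchange factor (chr8:12873806-13020905), was at 88.4 to 159 CPM in the other 12 and at 246, 247, 239 and 240 in knockout hypoxia (1.38 ± 0.22, adjusted p = 0.00802). Sema3g, a semaphorin of arterial endothelium, differed by 0.71 ± 0.12 (adjusted p = 0.0135). All of these stayed called when any 1 sample was left out, with adjusted p up to 0.0197, 0.0284 and 0.0381. Fbln2, a matrix protein of vessel walls (chr6:91212455-91272540), rose in both genotypes, from 27.5, 26.3, 16.9 and 19.5 to 49.1, 50.7, 51.7 and 39 CPM in the wild type and from 17.9, 20.9, 20.5 and 13.8 to 91.9, 93.2, 82.8 and 77.6 in the knockout. The rise was 1.06 ± 0.15 in the wild type and 2.24 ± 0.15 in the knockout (difference 1.18 ± 0.21, adjusted p = 0.0153, up to 0.0448 with 1 sample left out and 0.0863 without the 4 samples with genes of other organs). Plod1, which hydroxylates lysine in collagen, followed with 0.65 ± 0.14 (adjusted p = 0.0455), a call that was lost when any 1 sample was left out other than the wild type samples room air 1, hypoxia 2 and knockout room air 2 (adjusted p 0.0531 to 0.114).

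A smaller set rose in the wild type and less or not in the knockout. Tiam1, an exchange factor that activates Rac (chr16:89787111-90143769), was at 46, 49.8, 37.2 and 45.6 CPM in the room air and 89, 83.3, 65.7 and 77.4 in the hypoxia samples of the wild type. Its knockout samples stood at 41.7, 31.7, 36.8 and 32.2 CPM in room air and 31.8, 28.8, 28.1 and 27.4 in hypoxia. It rose in the wild type (0.81 ± 0.11, adjusted p = 0.000105) and did not change detectably in the knockout (-0.30 ± 0.11, adjusted p = 0.0696). The difference of -1.11 ± 0.16 (adjusted p = 0.00243) stayed called when any 1 sample was left out (up to 0.0102). Cdk19, a kinase of the Mediator complex (chr10:40339564-40483818), rose in both genotypes to 802, 760, 730 and 630 CPM in wild type hypoxia and 467, 550, 445 and 545 in knockout hypoxia, from 83 to 157 CPM in the room air samples. Its rise was 2.95 ± 0.13 in the wild type and 2.00 ± 0.12 in the knockout (difference -0.95 ± 0.17, adjusted p = 0.012, up to 0.0365 with 1 sample left out and 0.0859 without the 3 samples with few reads in genes). Ndnf, a secreted neurotrophic factor (chr6:65671590-65712326), rose in the wild type to 403, 381, 380 and 431 CPM and fell in the knockout to 243, 215, 211 and 281, from 270 to 312 in room air (difference -0.71 ± 0.12, adjusted p = 0.012, up to 0.0381 with 1 sample left out). Epha4, an ephrin receptor, rose from 49.1 ± 3.39 to 98.5 ± 10.7 CPM in the wild type and stood at 60.8 ± 11.4 and 69 ± 10.2 in the knockout (-0.82 ± 0.17, adjusted p = 0.0392). Steap4, a metalloreductase of iron and copper, did likewise (-1.05 ± 0.23, adjusted p = 0.045), as 14.3 ± 3.41 and 23.6 ± 6.04 CPM in the wild type and 18.9 ± 1.45 and 15.1 ± 0.573 in the knockout show. Epha4 lost its call when any 1 sample was left out other than the wild type samples room air 1, hypoxia 4 and the knockout samples room air 3 and 4, hypoxia 2 (adjusted p 0.0596 to 0.0951). Steap4 lost it when any 1 sample was left out other than the wild type samples room air 1, hypoxia 3 and 4 (adjusted p 0.0548 to 0.112).

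**Figure D4:**
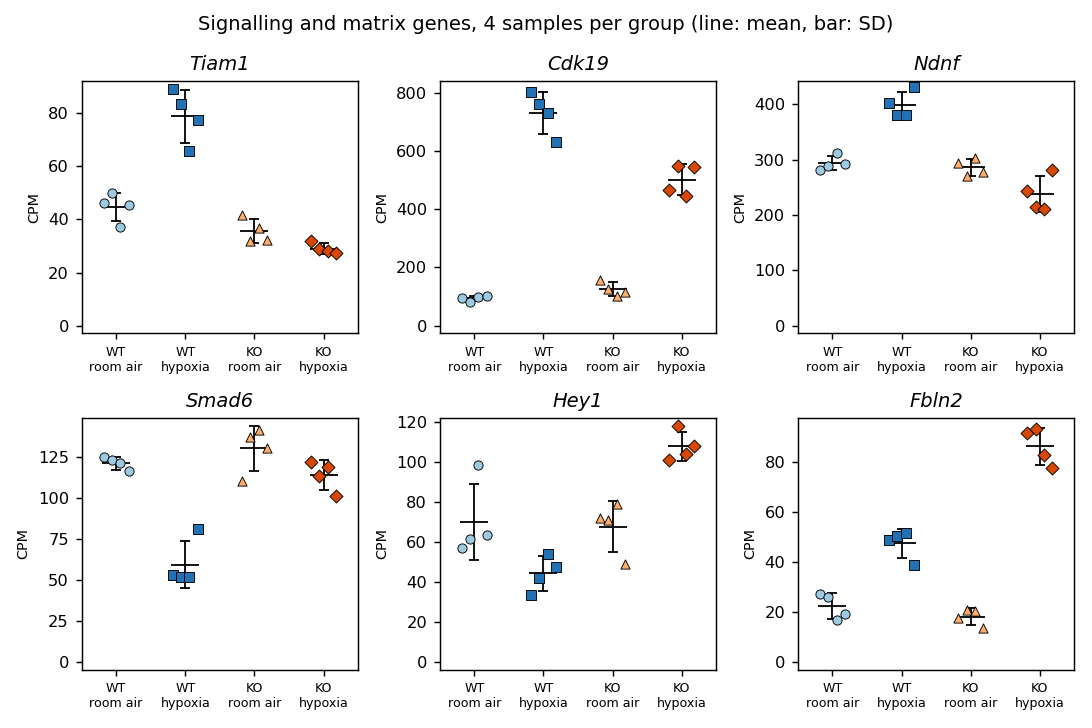
Expression in CPM (vertical axis, from 0) of 6 signalling and matrix genes in the 4 groups, with 1 point per sample, a line at the group mean and a bar of 1 SD over 4 samples. Tiam1 and Ndnf are highest in wild type hypoxia, Smad6 is lowest there, and Hey1 and Fbln2 are highest in knockout hypoxia.

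Of the remaining called genes, several with small p values belong to no list. Gprasp1, a protein that sorts G protein-coupled receptors to lysosomes (chrX:135742733-135803474), was at 65.6, 60.7, 76.1 and 67.7 CPM in the room air and 46.7, 54.3, 54.4 and 57.6 in the hypoxia samples of the wild type. Knockout samples were at 71.3, 68.3, 70.7 and 57.8 CPM in room air and 117, 97.2, 110 and 121 in hypoxia. It fell in the wild type and rose in the knockout (difference 1.07 ± 0.13, adjusted p = 0.00148, up to 0.00646 with 1 sample left out), and its model overlaps 4 other listed genes. Elf5, a transcription factor of epithelial cells (chr2:103411688-103450989), was at 13, 12.3, 13.3 and 12 CPM in knockout hypoxia and 20.5 to 27.2 in the other 12 samples (-0.98 ± 0.14, adjusted p = 0.00243, up to 0.0102). The uncharacterised 6430548M08Rik was at 218, 209, 198 and 203 CPM there and 108 to 158 elsewhere (0.88 ± 0.12, adjusted p = 0.00243, up to 0.00927), and 4930486L24Rik at 16.2, 14.2, 17.5 and 17.9 and 3.69 to 6.9 (1.74 ± 0.27, adjusted p = 0.00675, up to 0.0225). Serpina9, a serine protease inhibitor of germinal centre B cells, fell in the knockout (-2.18 ± 0.23, adjusted p = 3.06e-06) with a difference of -1.92 ± 0.31 (adjusted p = 0.00802, up to 0.0271). Rgs9, a regulator of G protein signalling, fell in the wild type from 34.5, 38, 44.2 and 33.4 to 18.3, 16.9, 15.4 and 17.6 CPM and stood at 32.9, 33.8, 31.5 and 37.1 and 30.1, 24.6, 30.3 and 25.2 in the knockout (0.83 ± 0.14, adjusted p = 0.012, up to 0.0381). Gpr125, an adhesion receptor, fell in the wild type by 0.41 ± 0.07 on the log2 scale and had an effect of 0.14 ± 0.07 in the knockout (0.55 ± 0.10, adjusted p = 0.0163, lost without knockout room air 1 (adjusted p = 0.051)). Tuba1a, an alpha tubulin, rose in the wild type (0.27 ± 0.07) and fell in the knockout (-0.28 ± 0.07), a difference of -0.55 ± 0.10 (adjusted p = 0.0201, lost when any 1 of the wild type samples room air 4, hypoxia 1 and the knockout samples room air 1, hypoxia 3 was left out (adjusted p 0.051 to 0.059)).

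Further called genes were low in reads or lost their call when a sample was left out. Tomm20l was under 1 CPM in every sample (3.18 ± 0.67, adjusted p = 0.0382), with 6 reads over the 4 wild type hypoxia samples and 63 over the knockout hypoxia samples. Its call was lost when any 1 sample was left out other than the wild type samples room air 1 and 4 and the knockout samples room air 4, hypoxia 2 (adjusted p 0.0545 to 0.0951). Apobec4 was at 0.197, 0.418, 0.339 and 0.331 CPM in knockout hypoxia and 0.323 to 1.68 in the other samples, a difference of -2.59 ± 0.54 (adjusted p = 0.0356) that was lost when any 1 sample was left out other than the wild type samples room air 1, hypoxia 3 and the knockout samples room air 2, hypoxia 2 (adjusted p 0.0505 to 0.0876). Slc2a6, a sugar transporter of leukocytes, was at 6.87, 12.6, 4.65 and 6.44 CPM in wild type hypoxia and 3.78, 3.47, 3.11 and 4.18 in knockout hypoxia (-1.79 ± 0.37, adjusted p = 0.0356), and its call was lost when any 1 sample was left out other than the wild type samples room air 1, hypoxia 2, 3 and 4 and knockout room air 3 (adjusted p 0.0505 to 0.0807). Pmvk, phosphomevalonate kinase of cholesterol synthesis, rose in the knockout to 111, 71.7, 84.2 and 125 CPM from 33.4, 40.8, 58.6 and 48.8 (1.42 ± 0.28, adjusted p = 0.0356), while the other 19 members of its pathway were not called (5% called higher, against 0.279% of all genes tested). Its call was lost when any 1 sample was left out other than the wild type samples room air 1, hypoxia 2 and the knockout samples room air 3, hypoxia 2 (adjusted p 0.0507 to 0.0797). Lrrc26, a subunit of potassium channels in secretory epithelium, fell in the knockout to 4.08, 4.47, 3.95 and 4.32 CPM from 8.72, 7.11, 11.3 and 9.61 (-1.13 ± 0.23, adjusted p = 0.0292), a call lost when any 1 sample was left out other than the wild type samples room air 1, 2 and 3, hypoxia 1, 2 and 4 and the knockout samples room air 2, hypoxia 2 (adjusted p 0.0546 to 0.0732). Of 19 fibroblast markers 1 was called lower (5.26%, against 0.222% of all genes tested). This was Scara5, a ferritin receptor, which fell in the knockout to 11, 10.7, 8.3 and 7.3 CPM (-0.98 ± 0.20, adjusted p = 0.0363) and lost its call when any 1 sample was left out other than the wild type samples room air 1 and 3, hypoxia 4 and the knockout samples hypoxia 1 and 2 (adjusted p 0.051 to 0.0885). Ccdc146 (-1.15 ± 0.20, adjusted p = 0.012, up to 0.0381) and 4930451C15Rik (-1.16 ± 0.21, adjusted p = 0.0163, lost without knockout room air 1 (adjusted p = 0.0501)) also fell in the knockout. Ccdc146 is overlapped on the opposite strand by Fgl2 and Gsap, and 16 of the 79 called genes overlap another listed gene on the opposite strand, whose reads cannot be told apart if the counting ignored strand.

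Clock genes held 1 call of 18, higher (5.56%, against 0.279% of all genes tested): Ciart, which represses the clock activators Clock and Bmal1. Ciart (chr3:95878503-95882251) was at 3.97, 5.86, 5.91 and 17.3 CPM in the room air and 2.81, 3.51, 3.69 and 3.98 in the hypoxia samples of the wild type. In the knockout it was at 3.32, 2.87, 3.51 and 4.85 CPM in room air and 6.81, 7.43, 10.3 and 7.23 in hypoxia. Wild type room air 4 was far above its group. Ciart fell in the wild type (-1.25 ± 0.35, adjusted p = 0.0446) and rose in the knockout (1.12 ± 0.34, adjusted p = 0.0305), a difference of 2.37 ± 0.49 (adjusted p = 0.0367). It stayed called without wild type room air 4, and lost its call when any 1 sample was left out other than the wild type samples room air 1, 2, 3 and 4 and knockout room air 4 (adjusted p 0.0537 to 0.0922) and with limma voom (0.0817). The list's median difference was 0.77, with 6 members higher and 1 lower at an unadjusted p under 0.05. Per2, a clock repressor, differed by 2.33 ± 0.69 (adjusted p = 0.146) and was at 26.5, 59.5, 69.1 and 147 CPM in wild type room air. Dbp, an output factor of the clock, differed by 2.09 ± 0.91 (adjusted p = 0.326) and was at 38, 54.5, 35.6 and 160 CPM there. In both genes wild type room air 4 was again the highest sample, and the sources used here give no hour of sacrifice.

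The pathway of the deleted enzyme, with genes for arginine, polyamines and nitric oxide, held no called gene. Of 24 measured members edgeR, DESeq2 and limma voom called 0 each, with 1 higher and 2 lower at an unadjusted p under 0.05 and a median difference of -0.10. Ddah1 had the smallest p. Its product removes methylated arginines that block nitric oxide synthases, and it differed by -0.38 ± 0.14 (adjusted p = 0.212). Arg1, the cytosolic arginase, was at 1.05 to 3.08 CPM in all 16 samples, with a difference of -0.37 ± 0.45 (adjusted p = 0.781). Nos3, the endothelial nitric oxide synthase, rose in both genotypes, to 51.8, 55.9, 47.1 and 42.2 CPM in the wild type and 69.2, 75.5, 71.1 and 65.3 in the knockout, and the difference of 0.27 ± 0.16 was not called (adjusted p = 0.478). Nos2, the inducible synthase, rose in the wild type (1.45 ± 0.32, adjusted p = 0.011) and not detectably in the knockout (0.66 ± 0.32, adjusted p = 0.178), but the difference itself was not called (-0.78 ± 0.45, adjusted p = 0.461).

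The lists of matrix, contractile, endothelial and type II cell genes held no called gene; Fbln2, Plod1 and P4ha2, called above, are not on the matrix list. Of 40 matrix genes edgeR and limma voom called 0 and DESeq2 2, both lower, with 2 higher and 7 lower at an unadjusted p under 0.05 and a median of -0.17, or -0.29 without the 4 samples with genes of other organs. Eln, which encodes elastin, rose in both genotypes, by 2.14 ± 0.23 in the wild type and 1.00 ± 0.23 in the knockout, and differed by -1.13 ± 0.32 without a call (adjusted p = 0.113). Of 20 contractile genes of smooth muscle edgeR and limma voom called 0 and DESeq2 1, which was lower, with 5 lower at an unadjusted p under 0.05. Mmp9, the gelatinase that neutrophils also store, had the smallest p of the matrix list (-1.70 ± 0.45, adjusted p = 0.1). Pcp4l1 had the smallest p among the contractile genes (-0.65 ± 0.17, adjusted p = 0.0836). Of 28 endothelial markers edgeR and limma voom called 0 and DESeq2 1, which was higher, with 5 higher at an unadjusted p under 0.05. Pecam1, the adhesion protein CD31, differed by 0.39 ± 0.11 (adjusted p = 0.0964). Of 17 type II cell markers edgeR and limma voom called 0 and DESeq2 1, which was lower, with 1 higher and 2 lower at an unadjusted p under 0.05. The type II factor Etv5 differed by -0.47 ± 0.13 (adjusted p = 0.0932). The summed levels of endothelial markers were 8489 to 9482 CPM in the room air samples, 9182 to 9971 in wild type hypoxia and 9505 to 10527 in knockout hypoxia.

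Other lists of leukocytes and lung cells gave no calls by edgeR or limma voom among members matched by symbol. Among 17 markers of monocytes and interstitial macrophages matched by symbol, 1 was higher and 2 lower at an unadjusted p under 0.05. DESeq2 called 1 of them, lower. Of these 17 the integrin chain Itgam had the smallest p by edgeR (-0.94 ± 0.23, adjusted p = 0.072). The remaining listed marker, Adgre4, was not matched. Under its older symbol Emr4 it was called lower by edgeR, as given above. Among 17 alveolar macrophage markers 2 were lower at an unadjusted p under 0.05 and DESeq2 called 0, with the lipase Lpl first (-0.49 ± 0.16, 0.149). Among 18 genes of MHC class II and dendritic cells 1 was lower and DESeq2 called 0, with H2-Oa first (-0.88 ± 0.41, 0.343). Of 24 interferon-stimulated genes 4 were higher and 6 lower at an unadjusted p under 0.05 and DESeq2 called 1, lower. Oas3, an antiviral synthetase, had the smallest p of these (-1.45 ± 0.35, adjusted p = 0.0678). Of 16 pericyte markers 3 were higher at an unadjusted p under 0.05 and DESeq2 called 2, higher, with the channel subunit Abcc9 first (0.80 ± 0.19, 0.0592). DESeq2 called 0 of 17 type I cell markers and 0 of 19 airway markers. At an unadjusted p under 0.05, 1 type I marker was higher and 5 airway markers were lower, with Rtkn2 (0.33 ± 0.15, 0.339) and the basal cell factor Trp63 (-1.89 ± 0.63, 0.169) first.

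Proliferation, stress hormone and respiration genes were alike in having no call by edgeR, DESeq2 or limma voom. Of 30 cell cycle genes 3 were higher at an unadjusted p under 0.05, with a median of 0.29, or 0.76 without the 4 samples with genes of other organs. The proliferation marker Mki67 had means of 52.6 ± 4.24 and 66.2 ± 14.1 CPM in the wild type and 51.9 ± 11.1 and 97.1 ± 23.5 in the knockout (0.57 ± 0.25, adjusted p = 0.314). Of 23 immediate early genes 0 had an unadjusted p under 0.05, and Myc differed by 0.53 ± 0.31 (0.47). Of 16 glucocorticoid-induced genes 1 was higher at an unadjusted p under 0.05, the factor Zbtb16 with 1.85 ± 0.60 (0.183). Of 28 nuclear subunits of the respiratory chain 1 was higher, Ndufa5 with 0.32 ± 0.13 (0.253), and the list's median was 0.06, or 0.12 without the 4 samples with genes of other organs.

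Lists of skeletal muscle and pancreas genes had large medians beside sums that varied widely within 1 group. Neither these nor the lists of heart, fat, platelets, red cells and neck tissue held a gene called by edgeR or limma voom. The median of 12 skeletal muscle genes was 4.10, with sums of 14.6 to 1774 CPM in wild type room air and 10.6 to 36.4 in the other 12 samples. Without the 4 samples with genes of other organs this median was 0.27, and that of the pancreas list 2.86. Knockout hypoxia 2, with a pancreas sum of 203 CPM, was not among the samples left out. With all samples the median was 5.96 for the 5 of 19 pancreas genes that passed the filter on low counts. In each other group 8 or 9 of the 19 had no read, against 2 in knockout hypoxia. Genes high in knockout hypoxia alone can pass that filter, so a positive median was likely in advance. The sums over all 19 were 9.57 to 2628 CPM in knockout hypoxia and 3.13 to 16.1 in the other 12. DESeq2 called 0 of the muscle genes and 4 of the pancreas genes, all higher, and 0 and 4 were higher at an unadjusted p under 0.05. Of 16 heart muscle genes 3 were lower at an unadjusted p under 0.05 and DESeq2 called 0, with Myh7 first (-0.65 ± 0.24, 0.216). Of 12 adipocyte genes 6 were lower and DESeq2 called 1, lower, with Pck1 first (-2.07 ± 0.63, 0.145). Of 15 platelet genes 4 were lower and DESeq2 called 1, lower, with F5 first (-0.77 ± 0.21, 0.103). Of 9 erythroid genes 1 was higher and DESeq2 called 0, with Hemgn first (2.72 ± 1.10, 0.271). None of 6 genes of thyroid and neck tissue passed by DESeq2 or at an unadjusted p under 0.05, and Sprr1a differed by -1.30 ± 0.71 (0.437).

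**Figure D5:**
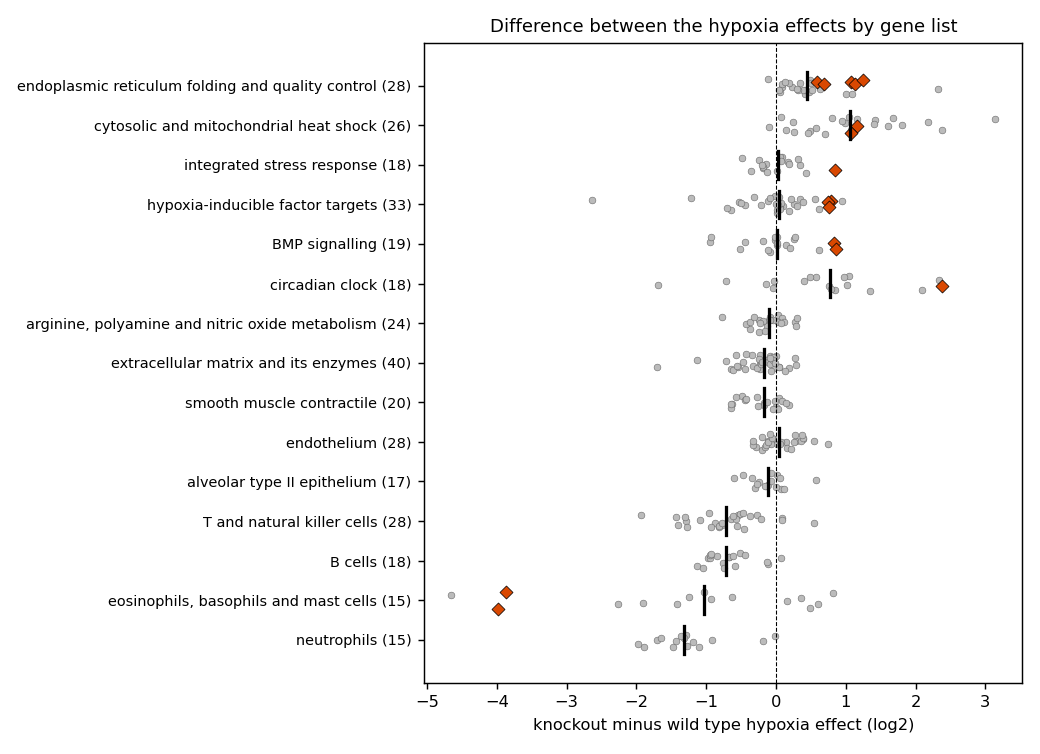
Difference between the hypoxia effects, knockout minus wild type (horizontal axis, log2), for the members of 15 gene lists, with the number measured in brackets. Grey points are members that were not called, orange diamonds called members and black lines the list's median, which is 0.44 for folding in the endoplasmic reticulum and -1.32 for neutrophils.

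Several genes that hypoxia changed strongly were not called for a difference between the genotypes, and these were picked after their values were seen. Rgs5, a pericyte gene, rose from 7.61, 2.36, 4.62 and 3.76 to 28.9, 30.2, 33 and 13 CPM in the wild type and from 7.34, 7.22, 8.42 and 5.46 to 119, 173, 165 and 154 in the knockout. Its hypoxia samples did not overlap between the genotypes, yet the difference of 1.92 ± 0.45 was not called (adjusted p = 0.0771). Ntrk2, which encodes the neurotrophin receptor TrkB, rose by 3.40 ± 0.20 in the knockout and differed by -1.20 ± 0.27 (adjusted p = 0.0579), with 373 to 506 CPM in wild type hypoxia and 217 to 308 in knockout hypoxia. Slc26a10 (0.75 ± 0.41, adjusted p = 0.432), the chemokine Cxcl12 (-0.33 ± 0.18, 0.432), the caveolar protein Plvap (-0.20 ± 0.21, 0.738) and the endothelin receptor Ednrb (-0.07 ± 0.17, 0.898) changed in both genotypes, without a detectable difference between the effects.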

How the data were processed

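RNA of 16 lungs was read as 20 libraries, which the submitters' protocols give as depleted of ribosomal RNA and directional. The deposited values are counts of reads per gene, 1 table per library, made by the authors with Trim Galore, TopHat2 and HTSeq on mm10, per the submitters' processing notes; the sources used here give no versions, annotation or strand setting. Summary rows that name no gene were dropped. Libraries A and B of one number were summed (the labels do not explain the letters), and 4 samples per group remained. Nothing in the labels says that samples with one number share a cage or a day, so numbers were not used as a block. Where the labels name no litter or day, a p-value speaks of the spread among these samples, which may be technical.

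Counts were fitted with edgeR 4.0.16 (R 4.3.3) on all 16 samples in 4 groups with no covariate: TMM scaling, filterByExpr (minimum count 10, minimum total 15), robust quasi-likelihood fits and Benjamini-Hochberg adjustment over all genes tested. Of 24062 genes listed 8296 were removed by the filter, and counts of genes leave out Xist, Tsix and Y-linked genes, so that they run over 15761. Males and females were among the animals, but sex was not a term of the fit. How the sexes fell over the 4 groups is not given here. The biological coefficient of variation was 15.8%. The contrast was tested on simulated data with 15626 genes, where 71% of genes changed by 1 and 96% of genes changed by 2 on the log2 scale were recovered, with 4 false calls. The changed genes were drawn from those with a mean above 2 CPM, and no sample was made to deviate as a whole. These shares therefore need not hold for lower genes or for the deviating samples described above. A count of 0 allows up to 3 reads, or 0.0474 to 0.315 CPM by sample, for counting error only. Alternatives used DESeq2 1.42.0 and limma 3.58.1 (voom), other scalings and filters, a correction for GC content, other covariates and the leaving out of samples. Positions come from GENCODE vM21 on GRCm38, where 22750 symbols matched directly, 934 through an older symbol and 378 not.

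Members and gene lists were chosen with earlier results of these data known. Genes were named by a rule: Arg2; the 12 called genes with the largest and the 12 with the smallest differences among those reaching 1 CPM in a group; the 10 called genes with the smallest p; up to 4 called members of each list, or else the member with the smallest p; and up to 3 genes of each response class. Other genes with values were chosen after their values were seen, among them Xbp1, Ptprc, Tomm20l, Epha4, Cct7, Plod1, Cd84, Prkcb, Fyb, Steap4, Tuba1a, Sema3g, Itga4 and Rac2 of the called genes, and every gene given as not called that was not the first of its list. Results for 1 called gene are not reported here.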

Additional observations from a re-analysis of the deposited data

Results flagged for a closer look

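The hypoxia effects of 79 genes differed between the genotypes by the test of the difference itself. Of these, 5 had effects that passed the test in opposite directions in the wild type and the knockout: Ciart with a difference of 2.37 on the log2 scale, Gprasp1 with 1.07, Hey1 with 1.31, Ndnf with -0.71 and Tuba1a with -0.55.

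In 264 combinations of a gene and a group of 4 samples, 19 had a sample whose gap to its nearest neighbour was too large a share of the group's range by Dixon's critical value. Chance flags about 1 in 20 such groups, or 13.2 here. Wild type room air 3 stood apart for Hspa5 at 784 CPM (521 to 555 in the others), Creld2 at 36.8 (26.1 to 27.6), Hey1 at 98.5 (56.9 to 63.8) and Etv5 at 114 (135 to 139). Wild type room air 4 stood apart for Ciart at 17.3 CPM (3.97 to 5.91) and Serpina9 at 3.59 (4.17 to 4.25), and wild type room air 1 for Pvalb at 72.4 (0 to 1.7). Wild type hypoxia 4 stood apart for Smad6 at 81.2 CPM (51.6 to 53.1) and Ms4a2 at 1.37 (0.487 to 0.561), and wild type hypoxia 3 for Emr4 at 5.81 (9.16 to 9.77). In knockout room air, sample 1 stood apart for Ddah1 at 40 CPM (38 to 38.3), Gzmb at 6.1 (7.75 to 7.82) and Scara5 at 14.4 (17 to 17.2), sample 3 for Pck1 at 20.1 (10.5 to 11.3) and sample 4 for Mcf2l at 135 (93 to 98.6). In knockout hypoxia, sample 1 stood apart for Ccdc146 at 8.98 CPM (9.72 to 9.83) and Ctrl at 79.7 (1.7 to 7.73), sample 2 for Gzmb at 2.76 (1.42 to 1.49) and sample 4 for Fam65b at 15.5 (20.1 to 20.9).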

How the results depend on the processing

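The count of 79 called genes (44 higher, 35 lower) came to 78 to 83 under the scaling of DESeq2, upper quartile scaling, no filter on low counts, limma voom, a fit without the robust option and library A alone. It was 484 (234 higher, 250 lower) by DESeq2's Wald test, 194 (117 and 77) after a correction for GC content and 132 (72 and 60) with the share of reads in genes as a covariate. Without the 4 samples with genes of other organs it was 48 (23 and 25), without those and wild type room air 3 it was 69 (27 and 42), and without the 3 samples with few reads in genes, chosen after seeing the data, it was 9 (5 and 4). Leaving out 1 sample gave 26 to 125 called genes, 14 to 70 higher and 12 to 55 lower. The cause of these differences was not tested. None of the 79 genes reversed its sign under the 30 alternatives, of which DESeq2 gave no value for Tomm20l, and 55 lost their call when some 1 sample was left out. With a replicate block the count was 157 (86 higher, 71 lower), and 231 (140 and 91) with the block and the GC correction. Numbers paired the samples only in part. Of 24 pairs with the same number 12 had a correlation of deviations over 0.1 (-0.327 to 0.46, median 0.107, against -0.049 for other pairs). Only 4 of 16 samples correlated best with their own number. Whether samples of one number shared a batch was not tested. Depth limits the low genes: 1 read was worth more CPM in wild type room air 3 than in any other sample.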
